A study of Mus musculus with 28 samples.

Results

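The 9 genes described here are 5 signal transducers and activators of transcription (Stat2, Stat3, Stat4, Stat5a and Stat6) and 4 inhibitors of the suppressor of cytokine signalling (SOCS) family (Socs1, Socs2, Socs3 and Cish). They were taken by symbol from the 24995 genes of the deposited sheets, and all 9 were found. Their transcripts were measured by RNA-seq in 28 libraries of dendritic cells grown from C57BL/6 mouse bone marrow with the cytokines GM-CSF and IL-4. The cells were wild type (WT), RelB knockout (RelBko), knockout for the type I interferon receptor IFNAR (IFNARko), or knockout for both (IFNARko;RelBko), and the knockout alleles and the age of the mice are not given in the sources used here. Per genotype there was a single control library, labelled 1 h, and single libraries 1, 3 and 8 h into treatment with CpG DNA (ODN 1668 at 0.1 µM, a ligand of Toll-like receptor 9) or with Poly(I:C) of high molecular weight, which mimics double-stranded RNA. For Poly(I:C) the titles give a dose of 10 ng/mL while the treatment protocol gives 10 µg/mL, and the difference was not resolved. All 28 cultures received GM-CSF and IL-4, the controls included, and such bone marrow cultures can hold macrophages and other cells beside dendritic cells. No group had a replicate, so each test below takes its spread from genotypes, times or stimuli used as repeats.

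Cytokine receptors carry Janus kinases (JAKs), which phosphorylate STAT proteins after the cytokine binds. The STAT proteins then pair, enter the nucleus and switch on target genes. Interferon signals through STAT2 together with IRF9, IL-6 and IL-10 mainly through STAT3, IL-12 through STAT4, GM-CSF through STAT5 and IL-4 through STAT6, so the culture cytokines of these cells use STAT5 and STAT6. Several SOCS genes are themselves STAT targets, and their proteins block JAKs or the receptors and so close a feedback loop: SOCS1 and SOCS3 inhibit JAKs directly, while CIS (the product of Cish) and SOCS2 are best known for restraining STAT5 signalling.

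Values are reads per 1000000 reads of the library (CPM), 1 library each. Per kilobase of exon, the only scale on which levels are compared between genes here, Stat6 was the most abundant member, with a median of 67.4 CPM per kb over the 28 libraries and a range of 48.0 to 82.0. Stat5a (39.0 CPM per kb), Stat3 (32.1) and Stat2 (30.9) followed, then Socs2 (25.5), Cish (18.5), Socs1 (14.2), Stat4 (11.1) and Socs3 (7.24). Every pair of neighbours in this order overlapped in range. In proportion, the ranges were widest for Socs3 (2.14 to 60.7 CPM per kb) and Stat2 (14.8 to 117), and narrowest for Stat6 and Stat3 (22.3 to 41.3). The fewest reads behind any member's value were 62, for Socs3 in IFNARko;RelBko cells 3 h after Poly(I:C).

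On GRCm38 (mm10) with GENCODE M21, Stat2 lies on chromosome 10 at 128270559 to 128292849, Stat6 on chromosome 10 at 127642986 to 127660957, and Stat4 on chromosome 1 at 51987148 to 52107189, all on the plus strand. Stat3 (minus strand, 100885098 to 100939540) and Stat5a (plus strand, 100859351 to 100885169) sit tail to tail on chromosome 11 and share the bases from 100885098 to 100885169. Whether the counting used strand is not given in the sources used here, so reads in that stretch may have been split between them, and Stat5a also has a closely related neighbouring paralogue. Socs2 lies on chromosome 10 at 95385362 to 95417180, Socs1 on chromosome 16 at 10782240 to 10785536 and Socs3 on chromosome 11 at 117966079 to 117970047, all on the minus strand, and Cish on the plus strand of chromosome 9 at 107296026 to 107302784.

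Promoter windows from RefSeq (GRCm38.p6, 250 bases before to 50 after the start) were found for 8 of the 9 members, in 10 windows. They were searched on both strands for TTCNNNGAA, the gamma-activated sequence bound by most STAT dimers, which reads the same on both strands and was held by 8.3% of the 32851 promoters in the table. Of the members' windows, 2 held it, those of Socs3 and Cish, and these are shown because both genes are known STAT targets and had the 2 highest estimates against control 1 h after CpG, of which that of Socs3 passed the test and that of Cish did not. Capitals mark the matches, and each line is read 5′ to 3′ on the gene's own strand. The windows are chr11:117969317-117969616 (minus strand) for Socs3 and chr9:107296409-107296708 (plus strand) for Cish.
Socs3: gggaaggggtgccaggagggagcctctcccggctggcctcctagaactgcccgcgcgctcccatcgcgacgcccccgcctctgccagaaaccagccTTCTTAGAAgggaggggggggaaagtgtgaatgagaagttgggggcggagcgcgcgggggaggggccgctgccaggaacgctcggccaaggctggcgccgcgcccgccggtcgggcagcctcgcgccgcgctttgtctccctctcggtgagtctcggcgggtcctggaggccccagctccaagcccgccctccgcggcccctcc
Cish: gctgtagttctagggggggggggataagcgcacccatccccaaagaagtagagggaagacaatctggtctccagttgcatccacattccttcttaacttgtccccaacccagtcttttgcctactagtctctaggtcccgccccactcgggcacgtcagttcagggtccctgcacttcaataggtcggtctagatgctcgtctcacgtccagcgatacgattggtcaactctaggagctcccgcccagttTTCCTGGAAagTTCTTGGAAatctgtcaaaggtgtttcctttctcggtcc
The match lies at position -154 from the start in the Socs3 window, and the Cish window holds 2 matches, at +1 and +12. A match describes the letters only, and binding was not measured. No match in the other windows says only that these letters are not in them.

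Several features of the libraries bear on all members. The shallowest libraries were those of IFNARko and IFNARko;RelBko at 8 h of CpG, with 3269933 and 3814916 reads, and the deepest, WT at 8 h of CpG, had 42227938. Transcripts of both targeted genes were lower but still present in the knockouts: Ifnar1 in IFNARko was 0.478 to 0.772 of WT, and Relb in RelBko was 0.675 to 0.998 of WT, in 7 of 7 conditions. Dendritic cell markers summed to 16430 to 37247 CPM and all 10 were detected. The 12 T and NK cell markers summed to 594 to 1119 CPM in IFNARko. Their sums were 111 to 230 CPM in WT, 143 to 218 in RelBko and 61.6 to 105 in IFNARko;RelBko. Of these markers 1, Ncr1, was below 1 CPM in every library. Gzmb and Gzma ran highest, up to 457 and 389 CPM, and none of the others exceeded 55.6 CPM (Eomes). The 9 of 10 macrophage markers found summed to 2748 to 4707 CPM in WT, 1214 to 2422 in RelBko, 634 to 1055 in IFNARko and 834 to 1003 in IFNARko;RelBko. Xist was 445 to 1042 CPM in WT and IFNARko;RelBko and below 1 CPM in RelBko and IFNARko, where the Y-linked Ddx3y was 85.0 to 137 CPM, so WT and the double knockout were female by these transcripts and the single knockouts male. The averaged effects of IFNAR loss and of RelB loss have 1 male and 1 female genotype on each side. A genotype comparison within 1 RelB or IFNAR state sets a male against a female genotype. It cannot be told apart from a difference between the sexes.

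**Figure D1:**
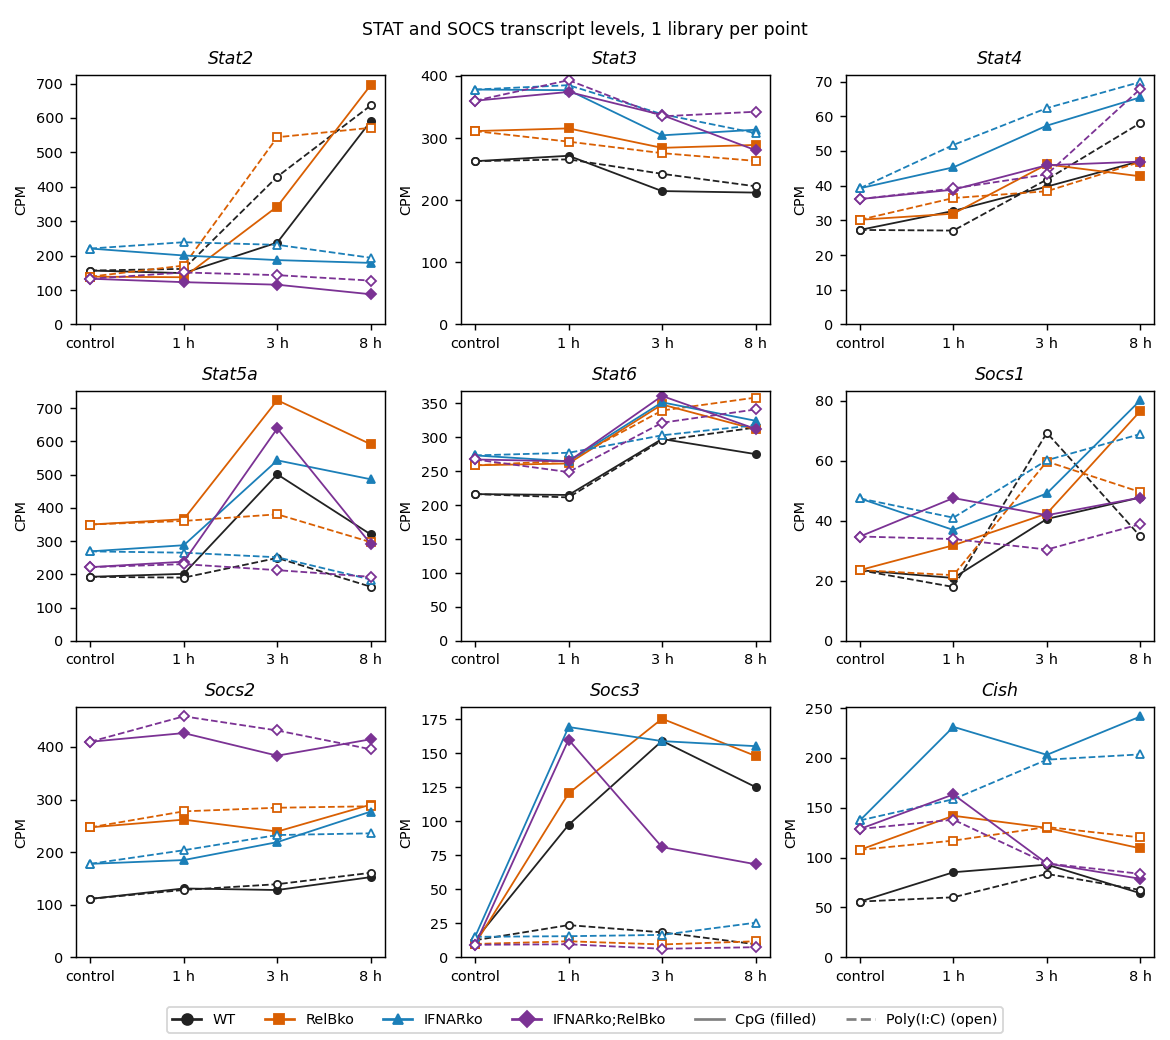
CPM of each of the 9 members (linear axes from 0, a scale of its own per panel) in the control and 1, 3 and 8 h after CpG (filled symbols, solid lines) or Poly(I:C) (open symbols, dashed lines), 1 library per point, coloured by genotype. Stat2 climbs in WT and RelBko, while in both IFNAR-null genotypes it stays at 239 CPM or less and falls with CpG. Socs3 climbs in every genotype after CpG only, and Socs2 separates the genotypes in every condition.

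Changes against control were tested with limma across the 4 genotypes on log2(CPM + 1), a scale that understates the change of low genes. CpG called 1 of 9 members at 1 h, 5 at 3 h and 7 at 8 h, beside 0.508%, 44.2% and 54.1% of all genes tested. Poly(I:C) called 0, 4 and 5 members, beside 0.331%, 23.6% and 43% of all genes. For the 1 h Poly(I:C) count of 0, limma gave 1 member at an unadjusted p under 0.05 (Socs2) and limma-voom also called 0. Members and background thus changed at similar rates at 3 and 8 h. The members' median change after CpG was 0.42 at 3 h and 0.59 at 8 h, where the median over all genes was -0.15 and -0.17. After Poly(I:C) it was 0.25 and 0.28, where the median over all genes was 0.02 and -0.03. Both stimuli share the control libraries. These are labelled 1 h only, so a change at 3 or 8 h, above all one seen with both stimuli, cannot be told apart from an effect of longer culture. In these bulk libraries a change in the number of cells of a type and a change in RNA per cell cannot be told apart.

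Stat2, the interferon-specific STAT, rose late and where IFNAR was present. In WT cells it was at 157 CPM in the control, 149, 238 and 591 CPM at 1, 3 and 8 h of CpG, and 162, 429 and 636 CPM at the same times of Poly(I:C). RelBko cells went from 139 CPM to 137, 343 and 696 CPM with CpG and to 171, 544 and 571 CPM with Poly(I:C). Along the CpG course the level was near control at 1 h and highest at 8 h in both genotypes, and with Poly(I:C) it was already high at 3 h. IFNARko cells held 221 CPM in the control, 200.5, 187 and 179 CPM with CpG and 239, 231 and 194 CPM with Poly(I:C). In IFNARko;RelBko the values were 133 CPM, then 123, 116 and 87.8 CPM with CpG and 151, 143 and 128 CPM with Poly(I:C). At 3 and 8 h no IFNAR-null library reached the lowest IFNAR-intact one.

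Within WT and RelBko, Stat2 rose by 0.95 ± 0.14 (SE) on the log2 scale at 3 h of CpG and by 2.11 ± 0.14 at 8 h (limma adjusted p 0.00016 and 4.9e-08), and by 1.71 ± 0.11 and 2.02 ± 0.11 with Poly(I:C) (adjusted p 2e-06 and 1.8e-07). Within the IFNAR-null genotypes it fell by 0.45 ± 0.09 at 8 h of CpG (adjusted p 0.0056), and its change of -0.12 at 8 h of Poly(I:C) did not pass (adjusted p 0.19). The difference itself, IFNAR-null minus IFNAR-intact response over 3 and 8 h, was -1.86 ± 0.16 for CpG and -1.88 ± 0.16 for Poly(I:C), both with adjusted p 1.5e-05. This test called 1 of 9 members for CpG and 2 of 9 for Poly(I:C), beside 6.26% and 4.35% of all genes. Averaged over all 4 genotypes the Stat2 change did not pass at any time (0.83 ± 0.49 at 8 h of CpG, adjusted p 0.18; 0.95 ± 0.45 at 8 h of Poly(I:C), adjusted p 0.12). RelB state did not change the response detectably, with differences of 0.21 ± 0.16 and 0.17 ± 0.16 (adjusted p 0.76 and 0.91).

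Among 22 genes known as targets of STAT2 and IRF9, the CpG response was lower without IFNAR for 19 and higher for 0 (median -2.51, all genes 0.05), beside 2.99% of all genes called lower, and the Poly(I:C) response was lower for 21 and higher for 0 (median -2.64, all genes 0.03), beside 2.54%. The lowest adjusted p after CpG belonged to Mx2, an antiviral GTPase (-3.59 ± 0.25), Rtp4 (-2.59 ± 0.21), Ifi44 (-2.81 ± 0.29) and Usp18, an inhibitor of IFNAR signalling (-3.10 ± 0.25). Averaged over all genotypes, 6 of the 22 rose at 8 h of CpG and 5 at 8 h of Poly(I:C), led by Epsti1 (1.29 ± 0.14 and 1.16 ± 0.12), beside 54.1% and 43% of all genes called in either direction.

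Stat5a, which relays GM-CSF, rose with CpG and changed little with Poly(I:C). WT cells held 193 CPM in the control, 202, 501 and 320.1 CPM at 1, 3 and 8 h of CpG and 190.2, 249 and 163 CPM with Poly(I:C). RelBko cells held 350.1, then 366, 724 and 592 CPM with CpG and 361, 381 and 297 CPM with Poly(I:C). The 3 h CpG library was the highest of its genotype in both, at 2.60 and 2.07 times control. IFNARko gave 269 CPM in the control, 288, 543 and 486 CPM with CpG and 265, 251.5 and 185 CPM with Poly(I:C). IFNARko;RelBko gave 222 CPM, then 238, 639 and 291.5 CPM with CpG and 231, 213 and 193 CPM with Poly(I:C), and again peaked at 3 h of CpG.

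The Stat5a rise was 1.24 ± 0.11 at 3 h of CpG (adjusted p 4.5e-07) and 0.68 ± 0.11 at 8 h (adjusted p 9.5e-05). The 3 h value was 1.21 ± 0.10 within the IFNAR-intact and 1.27 ± 0.21 within the IFNAR-null genotypes, and the difference in response between IFNAR states was -0.03 ± 0.22 (adjusted p 0.96). With Poly(I:C) it rose by 0.25 ± 0.08 at 3 h within the IFNAR-intact genotypes (adjusted p 0.028). After 8 h of Poly(I:C) Stat5a fell by 0.31 ± 0.08 (adjusted p 0.0039), although without the IFNARko libraries the change was -0.23 and did not pass (adjusted p 0.05). Of 9 genes known as STAT5 targets, 5 rose and 1 fell at 3 h of CpG (median 0.39), and 6 rose and 0 fell at 8 h (median 0.59), beside 44.2% and 54.1% of all genes called in either direction, so 6 of 9 at each time was not far from the background. Those with the lowest adjusted p at 3 h were Bcl2l1, which encodes the survival factor BCL-XL (2.43 ± 0.16), the cyclin Ccnd2 (0.81 ± 0.09), the IL-2 receptor chain Il2ra (1.51 ± 0.20) and Id2 (0.39 ± 0.06). Bcl2l1 went from 73.6 CPM in the WT control to 331 CPM at 3 h of CpG and 123 CPM at 8 h, a course like that of Stat5a, and these genes are also known targets of other factors.

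Stat6, which relays IL-4, rose modestly with both stimuli. Its 4 controls ranged from 216 to 273 CPM, the 3 h CpG libraries from 298 to 361 CPM and the 8 h Poly(I:C) libraries from 314.5 to 359 CPM, so neither group overlapped the controls. The change was 0.42 ± 0.05 and 0.27 ± 0.05 at 3 and 8 h of CpG (adjusted p 8.4e-06 and 0.00038) and 0.31 ± 0.06 and 0.39 ± 0.06 with Poly(I:C) (adjusted p 0.0015 and 7.9e-05). Of 15 tested genes known as STAT6 or IL-4 targets, 1 rose and 13 fell at 8 h of CpG (median -1.08), beside 38.8% of all genes called lower, and 0 rose and 10 fell at 8 h of Poly(I:C) (median -0.54), beside 24.1%. The lectin Mgl2 (-1.94 ± 0.08), E-cadherin Cdh1 (-2.04 ± 0.11), arginase Arg1 (-1.85 ± 0.10) and Retnla (-1.08 ± 0.07) had the lowest adjusted p after CpG. In WT cells Mgl2 went from 1858 CPM to 620.2 and Arg1 from 3673 to 808 at 8 h of CpG. The transcript of the factor and those of its known targets thus moved in opposite directions at 8 h, and STAT6 protein or phosphorylation was not measured.

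Stat4, the STAT of IL-12, was a low member that rose in every genotype by 3 h. WT cells held 27.2 CPM in the control, 32.7, 39.7 and 47.1 CPM with CpG and 27.1, 41.8 and 58.0 CPM with Poly(I:C). Across the other genotypes the controls were 30.2 to 39.2 CPM and the 8 h libraries 42.7 to 69.9 CPM, each above its own control. The rise was 0.50 ± 0.08 and 0.59 ± 0.08 at 3 and 8 h of CpG (adjusted p 0.00011 and 1.5e-05) and 0.46 ± 0.10 and 0.85 ± 0.10 with Poly(I:C) (adjusted p 0.0033 and 6.6e-06). At 8 h of Poly(I:C) the rise was 0.85 ± 0.11 within the IFNAR-null genotypes (adjusted p 0.00022).

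Stat3, the STAT of IL-6 and IL-10, drifted down. In WT the control held 263 CPM, the CpG libraries 271.5, 215 and 212 CPM and the Poly(I:C) libraries 266, 242 and 222 CPM. The change was -0.21 ± 0.06 and -0.26 ± 0.06 at 3 and 8 h of CpG (adjusted p 0.015 and 0.0024) and -0.14 ± 0.05 and -0.21 ± 0.05 with Poly(I:C) (adjusted p 0.048 and 0.0022). The CpG values rest on the scaling: with median-ratio size factors, under which the all-gene median shifts by 0.13 (3 h) and 0.15 (8 h), Stat3 stood at -0.06 and -0.09 (adjusted p 0.52 and 0.29). The move of Stat3 from -0.21 and -0.26 to these values was close to the shift itself. The 3 h Poly(I:C) call was lost in 9 of the alternatives tried, leaving out each genotype in turn among them.

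Socs3 had the largest rise of the 9 members in the fit over all genotypes, after CpG, and was not called after Poly(I:C) at any time. WT cells held 12.5 CPM in the control, 97.4, 159 and 125 CPM at 1, 3 and 8 h of CpG, and 23.6, 18.3 and 9.53 CPM with Poly(I:C). RelBko cells went from 9.70 to 121, 176 and 148 CPM with CpG and 11.7, 9.37 and 11.7 with Poly(I:C). Both were highest at 3 h of CpG, and no Poly(I:C) library exceeded 25.4 CPM in any genotype. IFNARko cells held 15.0 CPM, then 169, 159 and 155 CPM with CpG and 15.4, 16.4 and 25.4 CPM with Poly(I:C). IFNARko;RelBko cells held 9.11 CPM, then 160.1, 81.0 and 68.4 CPM with CpG and 9.50, 6.18 and 7.34 CPM with Poly(I:C). In the IFNAR-null genotypes the highest value came at 1 h, 11.3 and 17.6 times control, and the double knockout was then lower at 3 and 8 h.

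Socs3 was the 1 member called at 1 h of CpG, and its rise was 3.49 ± 0.25 at 3 h and 3.27 ± 0.25 at 8 h (adjusted p 2.1e-06 and 2.3e-06). It was 3.19, 3.81 and 3.51 at 1, 3 and 8 h within the IFNAR-intact genotypes, and 3.70 ± 0.24, 3.17 and 3.03 within the IFNAR-null ones (adjusted p 0.0028, 0.00039 and 0.00037). The difference in response between IFNAR states over 3 and 8 h was -0.56 ± 0.44 (adjusted p 0.56). Direct comparison of the stimuli put Socs3 higher with CpG by 3.14 ± 0.30, 3.47 ± 0.30 and 3.19 ± 0.30 at 1, 3 and 8 h (adjusted p 0.00054, 1e-05 and 2.3e-05). Of the 17 tested cytokines that act through STATs, 1 rose at 1 h of CpG (the IL-23 subunit Il23a, 2.48 ± 0.33), 8 at 3 h and 12 at 8 h, and 0 fell, beside 0.508%, 44.2% and 54.1% of all genes called in either direction. Il6, whose receptor SOCS3 restrains, went from 4.44 CPM in the WT control to 37.7, 325 and 334 CPM at 1, 3 and 8 h of CpG.

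Socs1, a direct JAK inhibitor and a known interferon target, rose most where IFNAR was present. WT cells held 23.5 CPM in the control, 20.9, 40.6 and 47.7 CPM with CpG and 17.9, 69.3 and 34.8 CPM with Poly(I:C). RelBko cells held 23.6 CPM, then 31.8, 42.4 and 76.5 CPM with CpG and 21.9, 59.7 and 49.5 CPM with Poly(I:C). Poly(I:C) gave its highest value at 3 h and CpG at 8 h in both. IFNARko cells started higher, at 47.4 CPM, and held 36.9, 49.1 and 80.1 CPM with CpG and 41.0, 60.1 and 68.9 CPM with Poly(I:C). IFNARko;RelBko cells held 34.7 CPM, then 47.5, 41.8 and 47.7 CPM with CpG and 33.9, 30.4 and 38.9 CPM with Poly(I:C). The 4 IFNAR-null Poly(I:C) libraries of 3 and 8 h overlapped the 4 IFNAR-intact ones in level, while relative to its own control each IFNAR-intact library was at 1.48 times or more and each IFNAR-null one at 1.45 times or less.

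Within WT and RelBko, Socs1 rose by 1.41 ± 0.14 at 3 h of Poly(I:C) (adjusted p 6.2e-06) and by 1.32 ± 0.15 at 8 h of CpG (adjusted p 5.4e-07). Within the IFNAR-null genotypes the same changes were 0.07 (adjusted p 0.81) and 0.60 ± 0.23 (adjusted p 0.083). The Poly(I:C) response was lower without IFNAR by -0.89 ± 0.23 (adjusted p 0.045), a call that was lost without the 3 h libraries (-0.45, adjusted p 0.43), with a pseudocount of 5 (adjusted p 0.064) and with plain eBayes (adjusted p 0.14). For CpG the difference was -0.68 ± 0.23 and did not pass (adjusted p 0.1). Over all 4 genotypes Socs1 rose by 0.96 ± 0.20 at 8 h of CpG (adjusted p 0.0016).

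Cish and Socs2, the 2 inhibitors tied to STAT5, differed in level between genotypes. Averaged over the 4 genotypes their changes from control were small, while single Cish courses went in opposite directions by 8 h. Cish in WT was at 55.8 CPM in the control, 85.2, 92.9 and 64.2 CPM with CpG and 60.1, 83.5 and 67.4 CPM with Poly(I:C), and RelBko gave 108, then 142, 129.8 and 109 CPM with CpG and 117, 131 and 120.2 CPM with Poly(I:C). Every 1 h CpG library was above its control, at 1.27 to 1.68 times, while at 8 h IFNARko stood at 1.76 and the double knockout at 0.61 times control. Cish in IFNARko was at 137 CPM, then 231, 203 and 242 CPM with CpG and 158.5, 198 and 204 CPM with Poly(I:C), and IFNARko;RelBko gave 129, then 163, 94.1 and 78.6 and 138, 94.1 and 83.6 CPM. No Cish response passed over the 4 genotypes (0.52 ± 0.20 at 1 h of CpG, adjusted p 0.67), and within WT and RelBko it rose by 0.50 ± 0.11 at 1 h of CpG (adjusted p 0.027) and by 0.42 ± 0.09 at 3 h of Poly(I:C) (adjusted p 0.002). At 1 h Cish was higher with CpG than with Poly(I:C) in all 4 genotypes, by 0.39 ± 0.06 (adjusted p 0.00069).

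Socs2 rose by 0.34 ± 0.09 at 8 h of CpG (adjusted p 0.0037) and by 0.25 ± 0.07 and 0.28 ± 0.07 at 3 and 8 h of Poly(I:C) (adjusted p 0.024 and 0.0068). The Poly(I:C) calls were lost without the IFNARko libraries (0.20 and 0.23, adjusted p 0.15 and 0.06). In the double knockout no 3 or 8 h library was above 1.05 times control. The response difference between RelB states called 0 of 9 members for either stimulus in limma, beside 0.547% and 0.123% of all genes. At an unadjusted p under 0.05 there were 2 members for CpG (Socs2, -0.37 ± 0.10, and Cish, -0.79 ± 0.28) and 1 for Poly(I:C) (Socs2, -0.30 ± 0.10), and limma-voom called 0 for both.

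Set directly against each other at the same genotype and time, CpG and Poly(I:C) differed for 2 of 9 members at 1 h, 4 at 3 h and 3 at 8 h, beside 2.33%, 47.9% and 38.7% of all genes. Stat5a was higher with CpG by 1.16 ± 0.12 at 3 h and 0.99 ± 0.12 at 8 h (adjusted p 1.3e-05 and 5.5e-05). Stat2 was lower with CpG at 3 h by -0.53 ± 0.12 (adjusted p 0.0028), in 4 of 4 genotypes, and its difference at 8 h was -0.12 ± 0.12 (adjusted p 0.45). Stat4 was lower with CpG at 8 h by -0.26 ± 0.08 (adjusted p 0.016) and Socs2 at 3 h by -0.16 ± 0.05 (adjusted p 0.015). With median-ratio scaling, under which the all-gene median shifts by 0.15 (3 h) and 0.12 (8 h), those last 2 differences became -0.13 (adjusted p 0.25) and 0.02 (adjusted p 0.82). The 2 stimuli were given at 1 dose each, so no difference here is one at matched doses.

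Levels also differed between genotypes before and after stimulation. Over the stimulated libraries, IFNAR loss, averaged over RelB states, called 5 of 9 members after CpG and 6 after Poly(I:C), beside 47.1% and 54.6% of all genes. RelB loss, averaged over IFNAR states, called 2 and 4 members, beside 26.2% and 36.7%. The members were thus called about as often as other genes. In the IFNAR comparison the all-gene median shifted under median-ratio scaling by -0.16 (CpG) and -0.15 (Poly(I:C)), which is the size of several of the smaller effects.

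Socs2 showed the steadiest genotype differences. Its level over the 7 conditions ran from 111 to 161 CPM in WT, 239 to 290.3 in RelBko, 178 to 277 in IFNARko and 383 to 458 in IFNARko;RelBko, and WT and the double knockout overlapped with no other genotype. Mast cell and basophil markers were also highest in the double knockout, summing to 49.9 to 63.2 CPM against 5.36 to 44.9 CPM elsewhere, as were stromal markers, at 25 to 42.7 CPM against 0 to 3.30 CPM. The part of those cells in the Socs2 result was not tested. Socs2 was higher with RelB loss in both IFNAR states, at 1.79 to 2.23 times (RelBko over WT) and 1.5 to 2.31 times (double knockout over IFNARko), in 7 of 7 conditions each. IFNAR loss gave 1.41 to 1.82 times in RelB-intact and 1.38 to 1.66 times in RelB-null cells, again 7 of 7 each. The limma effects were 0.90 ± 0.07 and 0.96 ± 0.06 for RelB loss after CpG and Poly(I:C) (adjusted p 7.1e-07 and 1.6e-07) and 0.67 ± 0.07 and 0.62 ± 0.06 for IFNAR loss (adjusted p 4.5e-06 and 2.9e-06). The interaction of both losses was -0.08 ± 0.14 with CpG and -0.06 ± 0.12 with Poly(I:C), neither of which passed (adjusted p 0.82 for both).

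Stat3 was 1.39 to 1.48 times as high in IFNARko as in WT in 7 of 7 conditions. The double knockout over RelBko gave 0.971 to 1.34 (higher in 6 of 7). The averaged effect of IFNAR loss on Stat3 was 0.33 ± 0.06 after CpG and 0.43 ± 0.04 after Poly(I:C) (limma adjusted p 0.00046 and 3.6e-06). Stat4 was 1.20 to 1.91 times as high in IFNARko as in WT, and the double knockout over RelBko gave 0.995 to 1.45 (higher in 6 of 7). Its averaged effects were 0.31 ± 0.07 and 0.42 ± 0.09 (adjusted p 0.0029 and 0.0015). With median-ratio scaling the CpG values fell to 0.15 for Stat3 and 0.13 for Stat4 (adjusted p 0.075 and 0.16). Stat6 was called once, 0.14 ± 0.05 after CpG (adjusted p 0.035), and turned to -0.04 with that scaling. Stat2 was lower without IFNAR by -1.05 ± 0.36 over the Poly(I:C) times (adjusted p 0.049), a call lost when either the 3 h or the 8 h libraries were left out (-0.87 and -0.61, adjusted p 0.32 and 0.36), and the CpG value of -1.06 ± 0.41 did not pass (adjusted p 0.079). Stat4 is also expressed by T and NK cells, whose markers were highest in IFNARko, and their part in its level was not tested.

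With RelB loss 3 further members differed. Stat5a was higher after Poly(I:C) by 0.34 ± 0.06 (adjusted p 0.0014). Socs3 was lower after Poly(I:C) by -0.86 ± 0.21 (adjusted p 0.012), at levels of 6.18 to 25.4 CPM, and lost the call without the 3 h libraries (-0.75, adjusted p 0.15). It was -1.20 ± 0.30 in IFNAR-null cells (adjusted p 0.014) and -0.53 in IFNAR-intact cells (adjusted p 0.27). Stat3 was higher by 0.17 ± 0.06 after CpG and 0.12 ± 0.04 after Poly(I:C) (adjusted p 0.045 and 0.035), and both calls were lost with median-ratio scaling (0.08 and 0.03, adjusted p 0.43 and 0.68).

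**Figure D2:**
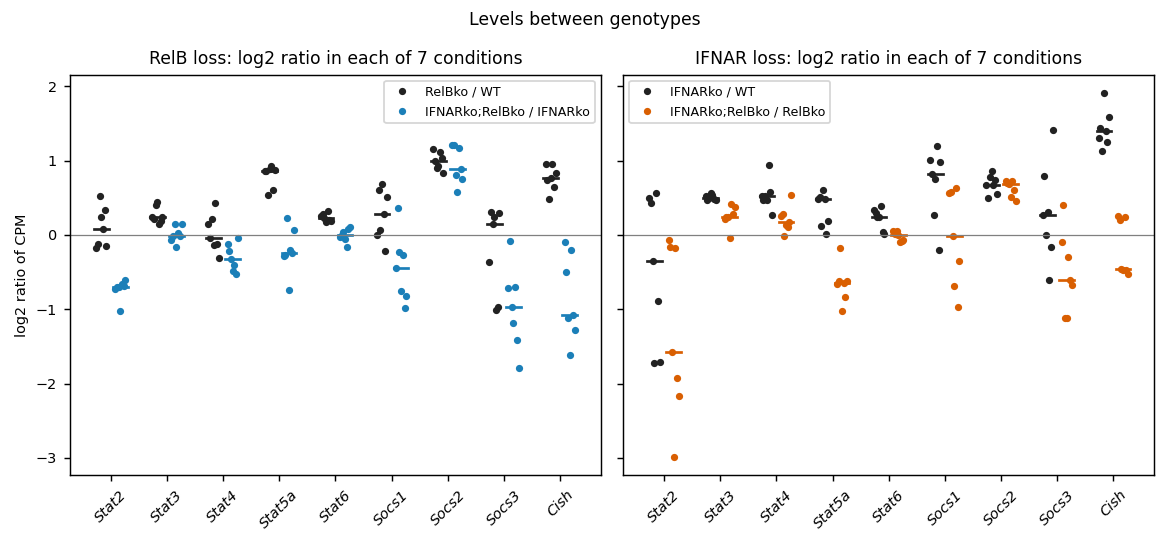
Log2 ratio of CPM between genotypes for each member, 1 point for each of the 7 conditions, with a bar at the median. The left panel shows RelB loss in IFNAR-intact (black) and IFNAR-null (blue) cells, and the right panel IFNAR loss in RelB-intact (black) and RelB-null (orange) cells; Socs2 lies above 0 in all 4 sets, while Stat5a and Cish split by the state of the other gene.

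For Cish and Stat5a the averaged effects hide differences that depend on the state of the other gene. Cish over WT was 2.19 to 3.77 times as high in IFNARko (7 of 7 conditions), whereas the double knockout over RelBko was 0.696 to 1.19 (higher in 3 of 7). RelBko over WT was 1.40 to 1.95, and the double knockout over IFNARko 0.326 to 0.937 (lower in 7 of 7). IFNARko was thus above the other 3 genotypes in every condition. The interaction, chosen for testing after these values were seen, was -1.73 ± 0.26 after CpG and -1.65 ± 0.28 after Poly(I:C) for Cish (adjusted p 0.0026 and 0.0066), and -1.02 ± 0.20 and -0.92 ± 0.13 for Stat5a (adjusted p 0.0077 and 0.00037). It called 2 of 9 members in each stimulus, beside 8.48% and 11.7% of all genes.

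In RelB-intact cells Cish was higher with IFNAR loss by 1.48 ± 0.19 after CpG and 1.40 ± 0.20 after Poly(I:C) (limma adjusted p 0.00024 and 0.0008). In RelB-null cells its difference was -0.24 ± 0.19 and -0.25 ± 0.20 (adjusted p 0.34 for both). In IFNAR-null cells Cish differed with RelB loss by -1.07 ± 0.19 and -0.85 ± 0.20 (adjusted p 0.0024 and 0.012). Stat5a differed most in RelBko, at 1.45 to 1.90 times WT in 7 of 7 conditions, while the double knockout was 0.493 to 0.883 of RelBko in 7 of 7. The 8 neutrophil markers were highest in RelBko as well, summing to 187 to 300.1 CPM against 66.0 to 124 in WT, 68.8 to 181 in IFNARko and 22.6 to 35.5 in the double knockout, and their part in the Stat5a result was not tested. Stat5a was higher with RelB loss in IFNAR-intact cells by 0.76 ± 0.14 and 0.80 ± 0.09 (adjusted p 0.0063 and 8.9e-05), and not detectably different in IFNAR-null cells (-0.26 and -0.13, adjusted p 0.21 and 0.31). With IFNAR loss Stat5a differed in RelB-null cells by -0.60 ± 0.14 and -0.70 ± 0.09 (adjusted p 0.0071 and 8.1e-05). Each of these comparisons sets a male against a female genotype and cannot be told apart from a difference between the sexes.

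The interaction sets WT and IFNARko;RelBko against RelBko and IFNARko, the same split as Xist and Ddx3y, so it cannot be told apart from a difference between the sexes. Cish was highest in the genotype with the highest T and NK cell marker sum, 594 to 1119 CPM in IFNARko against 61.6 to 230 CPM in the other 3, in each condition. The sum was lowest in the double knockout, where Cish was second highest in the control and at 1 h (129, 163 and 138 CPM) and second lowest, above WT, at 3 and 8 h. Within IFNARko, the highest sum came at 1 h of Poly(I:C), when Cish was at 158.5 CPM, its second lowest value there. WT and RelBko had marker sums of 111 to 230 and 143 to 218 CPM, and Cish was 1.40 to 1.95 times as high in RelBko. T cells are known to express Cish. The part of these cells in the Cish result was not tested.

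**Figure D3:**
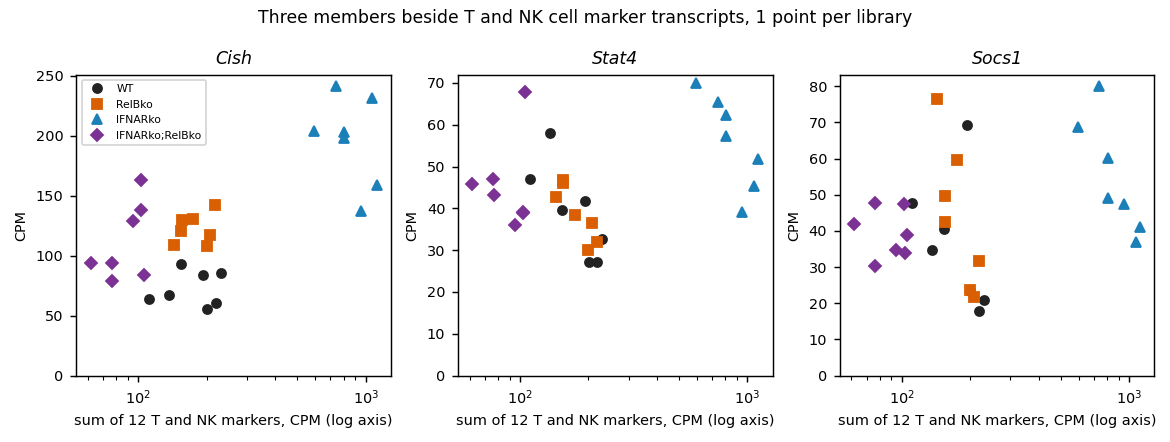
CPM of Cish, Stat4 and Socs1 (linear axes from 0) against the summed CPM of the 12 T and NK cell markers (log axis), 1 point per library, coloured by genotype. IFNARko libraries form a separate group at 594 to 1119 CPM of marker sum and have the highest Cish of the 4 genotypes in each condition, while within IFNARko none of the 3 genes is highest where the sum is highest.

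The rest of the pathway was described with lists. Of the 4 JAK genes, 3 rose and 1 fell at 8 h of Poly(I:C), when 43% of all genes were called. Tyk2, a kinase bound to IFNAR, rose by 0.59 ± 0.06, Jak3 by 0.27 ± 0.06 and Jak1 by 0.13 ± 0.04, while Jak2 fell by 0.21 ± 0.07. At 8 h of CpG Tyk2 alone passed (0.57 ± 0.06, adjusted p 1.4e-06). IFNAR loss gave higher Tyk2, Jak3 and Jak2 after CpG (0.50 ± 0.06, 0.65 ± 0.09 and 0.22 ± 0.07) and after Poly(I:C) (0.44 ± 0.06, 0.61 ± 0.05 and 0.43 ± 0.06). Of all genes, 47.1% and 54.6% were called in these comparisons, with a median over all genes of 0.16 and 0.15. Of 22 tested receptor chains, 11 rose and 7 fell at 8 h of CpG (median 0.18), and 11 rose and 2 fell at 8 h of Poly(I:C) (median 0.25), beside 54.1% and 43% of all genes called. The IL-10 receptor chain Il10ra rose by 0.60 ± 0.07, the common gamma chain Il2rg by 0.52 ± 0.06 and the IL-15 receptor Il15ra by 1.60 ± 0.17 at 8 h of CpG, and the LIF receptor Lifr fell by 1.18 ± 0.14.

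Other restraints on the pathway moved in both directions. Of 15 tested, 5 rose and 2 fell at 8 h of CpG (median 0.01), and 5 rose and 3 fell at 8 h of Poly(I:C) (median 0.07), both near the 54.1% and 43% of all genes called. Within the SOCS family Socs6 fell by 1.5 ± 0.11 at 8 h of CpG and by 0.73 ± 0.12 at 8 h of Poly(I:C) (adjusted p 1.1e-08 and 0.00031), whereas Socs5 rose by 0.90 ± 0.14 and 0.95 ± 0.11 (adjusted p 4.5e-05 and 7.1e-06). The phosphatase gene Ptpn6, which encodes SHP-1, rose by 0.63 ± 0.08 and 0.36 ± 0.07. At 8 h of CpG the cytokines with the lowest adjusted p were Ebi3 (1.87 ± 0.12), Csf3, which encodes G-CSF (2.84 ± 0.27), the IL-12 subunit Il12b (6.54 ± 0.51) and Il6 (4.48 ± 0.50). With Poly(I:C) 11 of the cytokines passed the filter and 4 rose at 8 h, among them Il12b by 1.54 ± 0.24.

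By Pearson correlation of log2(CPM + 1) over the 28 libraries, among 9988 genes with a mean of at least 5 CPM, each member was set beside the 3 genes most like it. Libraries of a genotype share their cells and conditions share genes that move together, so these values are descriptions only. Stat2 was most like Samd9l (0.954), Rnf213 (0.953) and Xaf1 (0.948), and Socs3 most like Tnf (0.955), Nfkbia (0.943) and Nfkbiz (0.943). Socs1 was most like Il15 (0.828), Ccdc88b (0.821) and Il15ra (0.811). Cish was most like Cd8b1 (0.874), one of the T cell markers above, then Podnl1 (0.854) and Ctla2a (0.851). The leading gene of Stat2 is interferon-inducible, and those of Socs3 are targets of NF-kB. Stat5a stood nearest Mtmr14 (0.928), Daam1 (0.886) and Lnx2 (0.886), and Socs2 nearest Pygo2 (0.953), Phf12 (0.951) and Rims3 (0.950). For Stat3 the nearest were Ppm1g (0.920), Ccm2 (0.918) and Eif4enif1 (0.916), for Stat4 Kif21b (0.895), Apaf1 (0.876) and Psd4 (0.869), and for Stat6 Aebp2 (0.920), Ccdc88b (0.908) and Mettl3 (0.902).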

How the data were processed

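RNA was measured in 28 libraries made with a stranded mRNA kit and read from a single end, per the labels' protocols. Of the authors' own steps, cutadapt, edgeR and mm10 are named without versions, per the submitters' processing notes; how reads were aligned and counted is not given in the sources used here. In GEO the authors deposited 2 sheets whose unit is not named (recorded as signal): the values are reads scaled to 1000000 per library with 1 added, so CPM is the deposited value less 1. Unnamed entries (2161 of 27178 in the CpG sheet, 0.0733 to 0.116% of a library, and 2 of 25019 in the Poly(I:C) sheet) and 11 repeated symbols were left out, leaving 24995 genes. The control columns were identical in both sheets.

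Tests used limma 3.58.1 (lmFit, then eBayes with a trend and robust option; R 4.3.3, statmod 1.5.0) on log2(CPM + 1). A gene entered a fit when 3 or more of its libraries had a CPM of 1 or more. P-values are two-sided, adjusted over all genes tested (Benjamini-Hochberg) and called under 0.05, and errors are SE of limma. The fits were also run on simulated reads, drawn independently for each library with changes put into randomly chosen genes. Because those libraries share no culture, that run cannot show how well genotypes, times or stimuli serve as repeats. Responses used genotype as a block; genotype comparisons used 12 stimulated libraries with time as a term; stimuli were compared within genotype and time; responses were compared between IFNAR or RelB states over all 28 libraries. With 1 library per group, from cultures whose independence the labels do not state, the p-values measure only the spread between these samples, which may be technical. Depth was 3269933 to 42227938 reads per library, so low values are least precise in the shallowest ones, and reads are not independent molecules.

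The members and gene lists were chosen with earlier results of these data known. Named genes are the 9 members, up to 4 genes per discussed list with the lowest adjusted p in the contrast, and the 3 genes most correlated with each member, and a few of these list genes were followed at other times or stimuli after their values were seen. Exon lengths are from GENCODE M21. Alternatives were median-ratio scaling, quantile normalisation, no filter, a pseudocount of 5, eBayes without trend and robust, limma-voom on whole reads recovered from the CPM, omission of the 2 shallowest libraries, and each genotype or time left out or taken apart.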

Additional observations from a re-analysis of the deposited data

Results flagged for a closer look

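The IFNAR effect on 2 members differed with RelB state. For Cish the difference (IFNAR loss in RelB-null minus RelB-intact cells) was -1.725 on the log2 scale with CpG and -1.650 with Poly(I:C), and for Stat5a it was -1.015 and -0.924. These 4 differences passed in the limma interaction test (adjusted p 0.0026, 0.0066, 0.0077 and 0.00037), which was chosen after the values were seen. Cish kept its sign under every alternative run, and lost the call after Poly(I:C) without the 3 h or the 8 h libraries (-1.62 and -1.43, adjusted p 0.095 and 0.1). Stat5a lost it after CpG without the 1 h libraries (-0.96, adjusted p 0.17). This contrast cannot be told apart from the split of the genotypes by Xist and Ddx3y.

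The response of 2 members differed between IFNAR states. The Stat2 response differed in IFNAR-null cells by -1.862 with CpG and -1.881 with Poly(I:C), and stayed called under the 8 and 9 alternatives that gave a value, between -2.56 and -1.17 for CpG and between -2.15 and -1.62 for Poly(I:C). The Socs1 response to Poly(I:C) was lower by -0.894 (adjusted p 0.045), and the adjusted p ranged from 2.3e-07 without the 8 h libraries to 0.43 without the 3 h libraries.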

How the results depend on the processing

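Of 727 recomputed member values, over 61 results, 631 kept their direction and their side of the threshold, 78 lost the call, 9 gained it and 9 turned. Reversals were Stat2 at 8 h of CpG (-0.447) and of Poly(I:C) (-0.123) in the IFNAR-null genotypes alone; Cish under IFNAR loss in RelB-null cells (-0.243 after CpG, -0.250 after Poly(I:C)); Stat3 under RelB loss after CpG in IFNAR-null cells (-0.008); Stat5a after Poly(I:C) under IFNAR loss in RelB-intact cells (0.223) and under RelB loss in IFNAR-null cells (-0.126); and, with median-ratio scaling, Stat6 under IFNAR loss after CpG (-0.036) and Socs2 between stimuli at 3 h (0.016). The cause was not tested.

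Counts of members called moved as follows. At 1 h of CpG it was 2 in WT and RelBko alone (1 overall). At 3 h of Poly(I:C), 4 became 2 with plain eBayes, 7 in WT and RelBko alone, 1 in the IFNAR-null genotypes alone and 2 to 5 with a genotype left out. At 8 h of Poly(I:C), 5 became 3 in the IFNAR-null genotypes and 3 to 6 with a genotype left out. For IFNAR loss after CpG, 5 became 2 with median-ratio scaling and 2 within RelB-null cells, and after Poly(I:C) 6 became 3 within RelB-null cells. For RelB loss after CpG, 2 became 1 without a filter, 1 with plain eBayes and 1 to 3 with a time left out, and after Poly(I:C) 4 became 2 to 6. The interaction after Poly(I:C) gave 1 to 2 with a time left out. Leaving out 3 or 8 h gave 1 to 2 for the CpG response by IFNAR state, 0 to 1 for the CpG and for the Poly(I:C) response by RelB state, and 1 to 2 for the Poly(I:C) response by IFNAR state, which also became 1 with a pseudocount of 5 and 1 with plain eBayes. Fewer libraries enter each fit on part of the data. The other 190 of 214 recomputed counts stayed within 1.5 times.

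Over all genes, calls ran from 30 to 109 at 1 h of CpG (64 overall), 0 to 42 at 1 h of Poly(I:C) (42), 918 to 3449 for RelB loss after CpG (3248) and 0 to 137 for the CpG response by RelB state (71). They ran from 3098 to 6426 and 3807 to 7449 at 3 and 8 h of CpG (5574 and 6817), 1111 to 3456 and 2927 to 5634 at 3 and 8 h of Poly(I:C) (2991 and 5457), and 2998 to 5910 and 4096 to 6882 for IFNAR loss after CpG and Poly(I:C) (5834 and 6851). RelB loss after Poly(I:C) gave 1827 to 4656 (4609), the interactions 248 to 1128 (1051) and 333 to 1578 (1471), CpG against Poly(I:C) at 1 h 99 to 491 (301), the responses by IFNAR state 341 to 1186 (812) and 245 to 871 (564), and the Poly(I:C) response by RelB state 0 to 73 (16).

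No paired analysis was possible because each group holds 1 library and no replicate number pairs them; the block in the response fits is genotype. The planned edgeR alternative was not run, limma-voom was run in its place, and limma-voom, quantile normalisation and the interaction were added after the data were seen. Omitting the 2 shallowest libraries left no value for the CpG response by IFNAR state, and no genotype could be left out of the comparisons of responses by state. Depth limits low members most: Socs3 after Poly(I:C) rests on as few as 62 reads.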

Other observations

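Many genes known as IL-4 targets, and fewer of the cytokine receptor chains, differed with RelB state. Of 15 tested STAT6 or IL-4 targets, RelB loss gave 1 higher and 10 lower after CpG (median -0.49) and 2 higher and 7 lower after Poly(I:C) (median -0.41), where the median of all genes was 0.09 and 0.10 and 26.2% and 36.7% of all genes were called. After CpG these were led by Retnla (-2.03 ± 0.07), the chemokine Ccl24 (-1.07 ± 0.07), Chil3 (-0.59 ± 0.05) and Arg1 (-0.74 ± 0.08). Several of them are also macrophage genes, and macrophage markers summed to 2748 to 4707 CPM in WT against 1214 to 2422 CPM in RelBko. With RelB loss in the IFNAR-null pair, that sum was higher at every CpG time (at 3 h, 691 CPM became 834). At 8 h of Poly(I:C) it was lower (1055 CPM became 968). Gpnmb, 1 of the markers summed, alone ran from 270 to 3524 CPM over all libraries. From IFNARko to IFNARko;RelBko, Retnla went from 648 to 77.8 CPM and Ccl24 from 1498.5 to 430 CPM at 3 h of CpG. From WT to RelBko, Retnla went from 123 to 52.6 and Ccl24 from 836 to 668 CPM. The part of macrophages in these differences was not tested. Of 22 tested receptor chains, 3 were higher and 9 lower after CpG, beside 26.2% of all genes called, led by the IL-12 receptor chains Il12rb2 (-0.79 ± 0.11) and Il12rb1 (-0.93 ± 0.13), the IL-4 receptor Il4ra (-0.45 ± 0.07) and Il13ra1 (-0.64 ± 0.11). The averaged values of Il12rb2 and Il12rb1 hide a difference between IFNAR states: at 3 h of CpG Il12rb2 was at 21.4 CPM in WT and 21.3 in RelBko, but at 51.3 in IFNARko and 17.8 in IFNARko;RelBko, and the interactions were -1.84 ± 0.21 and -1.86 ± 0.25 (limma adjusted p 5e-05 and 0.00026). The summed T and NK cell markers of IFNARko (594 to 1119 CPM) also exceeded those of IFNARko;RelBko (61.6 to 105 CPM), and their part was not tested. These interactions split the genotypes as Xist and Ddx3y do, so they cannot be told apart from a difference between the sexes.

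Of 9 genes known as IL-10 or STAT3 targets, 4 rose at 1 h of CpG, beside 0.508% of all genes called and with Stat3 itself at 0.03 ± 0.06: the RNA-binding Zfp36 (1.32 ± 0.14), Junb (0.63 ± 0.08), Etv3 (0.30 ± 0.05) and the kinase Pim1 (0.59 ± 0.11). At 3 h 5 rose and 2 fell, beside 44.2% of all genes, with Bcl3 at 1.44 ± 0.11 and Nfil3 at -1.58 ± 0.10. Among the cytokines, Ifng and Il13 were higher with IFNAR loss after CpG on average (1.39 ± 0.22 and 1.35 ± 0.16), which hides an interaction with RelB state (-3.12 ± 0.44 and -2.82 ± 0.32, limma adjusted p 0.00052 and 4.1e-05). At 3 h of CpG Ifng was at 1.12 CPM in WT and 29.2 in IFNARko, but at 3.75 in RelBko and 1.59 in IFNARko;RelBko. IFNARko also held the highest T and NK cell marker sum, and the part of those cells was not tested. The interactions of Ifng and Il13 cannot be told apart from a difference between the sexes either.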
